A study of Ovis aries with 8 samples.

Results

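Neuronatin (NNAT) and the 5 subunits of the signal peptidase (SEC11C, SEC11A, SPCS1, SPCS2 and SPCS3) were followed in pancreatic islets of fetal sheep. Each gene was the 1 row of the deposited table that carries exactly its symbol, 6 of 25000 rows. The set was selected on measured values: NNAT and SEC11C were picked because both were higher after norepinephrine in these same animals, and the other subunits were added because they form the same enzyme. The differences of NNAT and SEC11C between the treatment groups are therefore given as a description, with no test.

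The islets came from near-term singleton fetuses of Columbia-Rambouillet crossbred ewes. In 4 fetuses norepinephrine was infused intravenously for 7 days, at 1 µg/min on day 1, 2 µg/min on days 2 to 4 and 4 µg/min on days 5 to 7. Another 4 fetuses were infused with saline and ascorbic acid without the hormone and served as controls. Gestational age was 137 to 139 days in the norepinephrine group and 139 to 140 days in controls, and each group held 1 female fetus (control 2 and norepinephrine 3). Fetal weight was 2.8 to 3.7 kg in the norepinephrine group and 3.6 to 5 kg in controls, and weight was not used as a covariate. Islets were picked by hand and sequenced as messenger RNA of whole islets. In such bulk RNA, a change in the number of cells of a type and a change in RNA per cell cannot be told apart.

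Most secreted and many membrane proteins are made with an N-terminal signal peptide that directs the growing chain to the endoplasmic reticulum (ER). There the signal peptidase, a membrane complex next to the translocation channel, cuts the signal peptide off. SEC11A and SEC11C are alternative catalytic subunits, and SPCS1, SPCS2 and SPCS3 are their accessory partners. Neuronatin is a small proteolipid of the ER membrane made from an imprinted gene of neurons and endocrine cells. In mouse beta cells it is known to bind the signal peptidase and to aid the cutting of preproinsulin, the precursor of insulin.

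Expression is given as FPKM, sequenced fragments relative to transcript length and to the mapped fragments of each library, a measure per length that allows levels of different genes to be compared. Differences are log2 values of FPKM + 1, norepinephrine minus control, and ± values are SDs over n = 4 animals. The table holds no counts, so no counting interval was available. Animal numbers in the labels start with 09 (control 2 and norepinephrine 1, 3 and 4) or 10 (the other 4 animals), and what this prefix stands for is not stated there. Summed FPKM was 981583 to 1112624 in animals numbered 09 and 768021 to 796149 in those numbered 10, so the libraries parted by prefix. With equal summed FPKM in every animal the median difference of all genes shifted by -0.14. Over the 13252 genes with a mean of at least 1 FPKM, limma called 0.0% at an adjusted p under 0.05 (0 genes). At an unadjusted p under 0.05 it gave 975 genes, 479 higher and 496 lower, and with equal summed FPKM 1043 genes, 233 higher and 810 lower. All 6 members passed the abundance filter.

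NNAT was higher in every norepinephrine fetus than in any control. Its row lies on chromosome 13, 66032357 to 66033952 (Oar_v3.1). In controls it stood at 33.6, 68.2, 32.8 and 38.2 FPKM in animals 1 to 4, and with norepinephrine at 152.5, 107.3, 199.9 and 181.1 FPKM. The groups left a gap between control 2, the highest control, and norepinephrine 2, the lowest treated animal. Means were 43.2 ± 16.9 and 160.2 ± 40.3 FPKM, a ratio of 3.71 and a log2 difference of 1.90 (SE 0.27). Within single libraries NNAT moved from a mean percentile of 74.5 among the tested genes in controls to 93.3 with norepinephrine.

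SEC11C, one of the alternative catalytic subunits, lies on chromosome 23, 58373833 to 58382590. It stood at 113.1, 147.2, 97.3 and 123.0 FPKM in controls 1 to 4 and at 198.6, 190.5, 186.4 and 240.1 FPKM in norepinephrine animals 1 to 4. Here too no treated animal overlapped a control. Means were 120.2 ± 20.9 and 203.9 ± 24.7 FPKM, a ratio of 1.70 and a log2 difference of 0.77 (SE 0.15). The ratio was smaller than that of NNAT, and the treated animals were closer together, with a coefficient of variation of 12.1% against 25.2% for NNAT. SEC11C was already at percentile 91.7 of the tested genes in controls and stood at 95.1 with norepinephrine. Of all tested genes 1.88% were higher in every treated animal than in any control, and 2.35% were lower in every one. NNAT and SEC11C were chosen for their higher values, so nothing is read from their share of the 6 members.

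SEC11A, the other catalytic subunit (chromosome 18, 21429768 to 21461839), did not share the pattern of its paralog. It stood at 249.2, 344.3, 241.0 and 281.4 FPKM in controls and 270.4, 224.8, 323.7 and 286.2 FPKM with norepinephrine. The groups overlapped across nearly their whole range, with control 2 the highest and norepinephrine 2 the lowest of all animals. Means were 279.0 ± 46.9 and 276.3 ± 41.0 FPKM, and the difference on the log2 scale was -0.012 (SE 0.16, adjusted p = 0.991 by limma).

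**Figure D1:**
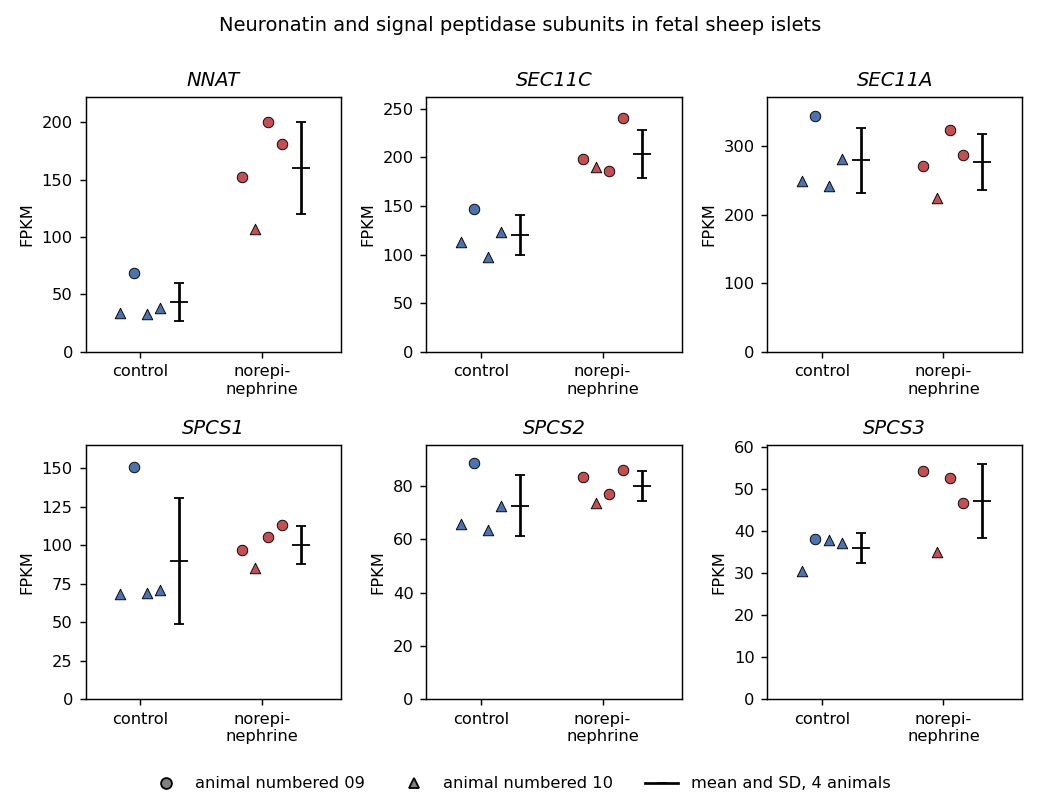
FPKM of neuronatin and the 5 signal peptidase subunits in each animal (y axis from 0), with control in blue and norepinephrine in red, circles for animals numbered 09 and triangles for animals numbered 10; the bar is the mean and SD of 4 animals. Groups do not overlap for NNAT (controls up to 68.2, treated from 107.3) and SEC11C (up to 147.2, from 186.4), while the other 4 genes overlap.

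The accessory subunits lay between these patterns and none passed the test. SPCS1, a small membrane subunit (chromosome 19, 48135180 to 48137136), stood at 68.4, 150.7, 68.9 and 70.7 FPKM in controls and 96.5, 85.1, 105.4 and 113.3 FPKM with norepinephrine. Control 2 was above every treated animal and the other 3 controls were below every one. Its log2 difference was 0.24 (SE 0.25, limma adjusted p = 0.830), and 0.52 when control 2 was left out.

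SPCS2 (chromosome 15, 52404788 to 52431105) stood at 65.8, 88.8, 63.5 and 72.6 FPKM in controls and 83.3, 73.6, 77.0 and 86.0 FPKM with norepinephrine. Again control 2 was highest and the other 3 controls were lowest. The log2 difference was 0.15 (SE 0.13, limma adjusted p = 0.800). It was -0.0063 with equal summed FPKM, and 0.13 when each library was scaled by its median ratio over genes instead.

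SPCS3, the glycoprotein subunit whose bulk faces the ER lumen (chromosome 26, 6516627 to 6572587), stood at 30.5, 38.1, 37.9 and 37.2 FPKM in controls and 54.2, 34.9, 52.6 and 46.6 FPKM with norepinephrine. The 3 treated animals numbered 09 were above all controls, and norepinephrine 2 lay within the control range. The log2 difference of 0.37 (SE 0.16) did not pass (limma adjusted p = 0.666). Exact two-sided permutation tests over the 8 animals gave unadjusted p = 1.0 for SEC11A, 0.486 for SPCS1, 0.286 for SPCS2 and 0.114 for SPCS3.

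The order of the levels changed around NNAT. In controls the group means ran from SEC11A (279.0 FPKM) through SEC11C (120.2), SPCS1 (89.7), SPCS2 (72.7) and NNAT (43.2) to SPCS3 (35.9). Only SEC11A was clear of its neighbour there, and all other neighbours overlapped over the 4 animals. With norepinephrine NNAT stood at 160.2 FPKM, after SEC11A (276.3) and SEC11C (203.9) and before SPCS1 (100.0), SPCS2 (80.0) and SPCS3 (47.1). In that group only SPCS2 and SPCS3 were neighbours without overlap. Within each control, NNAT was below SPCS2, at 0.510 to 0.768 of its FPKM, and within each treated animal it was above, at 1.46 to 2.60.

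Ratios within an animal do not depend on how its library was scaled. The ratio of SEC11C to SEC11A was 0.454, 0.428, 0.404 and 0.437 in controls 1 to 4 and 0.734, 0.847, 0.576 and 0.839 in norepinephrine animals 1 to 4. The controls lay within a narrow band that held animals of both number prefixes, and all treated animals lay above it with a wider spread (0.431 ± 0.0210 against 0.749 ± 0.127). Among animals numbered 09 the control had 0.428 and the treated animals 0.576 to 0.839, and among those numbered 10 the controls had 0.404 to 0.454 and the treated animal 0.847. Put as a share, SEC11C made up 30.1 ± 1.03% of the summed FPKM of the catalytic subunits in controls and 42.6 ± 4.34% with norepinephrine. SEC11A stayed the more abundant paralog in every animal. The summed FPKM of both paralogs overlapped between groups, at 338.3 to 491.5 in controls and 415.3 to 526.3 with norepinephrine. Since SEC11C was chosen for this contrast, the ratio is a description as well.

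The accessory subunits were set against SEC11A in the same way. SPCS2 held an almost fixed ratio to SEC11A in controls, 0.258 to 0.264, and ranged from 0.238 to 0.328 with norepinephrine, on both sides of the control values. SPCS1 ranged from 0.251 to 0.438 in controls, with control 2 the highest, and from 0.325 to 0.396 with norepinephrine. SPCS3 ranged from 0.111 to 0.157 and from 0.155 to 0.200, an overlap of control 3 with norepinephrine 2 alone. SEC11C against SPCS2 gave 1.53 to 1.72 in controls and 2.38 to 2.79 with norepinephrine, and against SPCS1 0.977 to 1.74 and 1.77 to 2.24, both without overlap. Against SPCS3 it gave 2.57 to 3.86 and 3.55 to 5.45, and the groups overlapped.

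**Figure D2:**
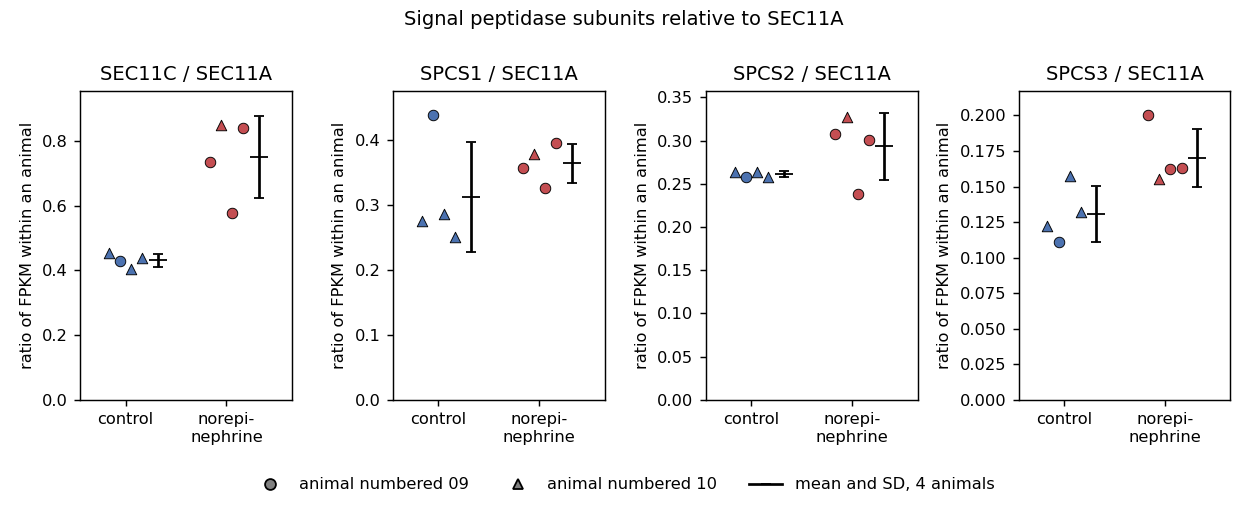
Ratio of each signal peptidase subunit to SEC11A within each animal (FPKM over FPKM, y axis from 0), control in blue and norepinephrine in red, circles numbered 09 and triangles numbered 10, with the mean and SD of 4 animals. The SEC11C ratio is 0.404 to 0.454 in controls and 0.576 to 0.847 with norepinephrine, whereas the ratios of the accessory subunits overlap.

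The number prefix is unevenly spread over the groups, with 1 control and 3 treated animals numbered 09. Both female fetuses (control 2 and norepinephrine 3) are numbered 09. Gestational age was 137 to 139 days in animals numbered 09 and 139 to 140 days in those numbered 10. Fetal weight was 2.8 to 3.6 kg in animals numbered 09 and 3.7 to 5 kg in those numbered 10. Differences between the prefixes therefore cannot be fully told apart from those of sex, age or weight. With treatment in the model, a comparison that did not choose the genes, 3 of the 6 members differed between the prefixes, all lower in animals numbered 10, where limma called 16.5% of all tested genes. NNAT differed by -0.83 on the log2 scale, animals numbered 10 minus 09 (SE 0.13, adjusted p = 0.0117), SPCS1 by -0.70 (SE 0.17, adjusted p = 0.0328) and SEC11A by -0.40 (SE 0.10, adjusted p = 0.0385). SEC11C (-0.26, adjusted p = 0.218), SPCS2 (-0.28, adjusted p = 0.105) and SPCS3 (-0.33, adjusted p = 0.141) did not pass. With equal summed FPKM limma called 32.8% of all tested genes and, of the members, only NNAT (-0.39, adjusted p = 0.0381), and the differences of SEC11C, SEC11A, SPCS2 and SPCS3 turned positive (0.19, 0.050, 0.17 and 0.12). Equal sums divided libraries by 1.07 to 1.22 in animals numbered 09 and by 0.839 to 0.870 in those numbered 10. This raises animals numbered 10 against 09 for every gene alike. Median ratios over genes gave closer factors, 0.994 to 1.05 and 0.968 to 0.986.

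No treated animal overlapped a control for NNAT or SEC11C, so within each number prefix their treatment differences had to be above 0. NNAT differed by 1.36 among animals numbered 09 (3 treated against control 2) and by 1.60 among those numbered 10 (norepinephrine 2 against 3 controls). SEC11C differed by 0.49 and 0.78. With the prefix as a covariate the differences were 1.48 for NNAT and 0.63 for SEC11C.

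The other subunits were not chosen on this contrast. SEC11A was lower with norepinephrine in both prefix groups, at -0.23 and -0.19. SPCS1 differed by -0.52 among animals numbered 09 and by 0.29 among those numbered 10, and SPCS2 by -0.11 and 0.13. SPCS3 differed by 0.41 and -0.0038. The interaction of treatment and prefix passed for 0.121% of all tested genes and for 0 of the 6 members (adjusted p from 0.848 to 0.975). With a lone animal on 1 side of each prefix group, these values rest on control 2 and norepinephrine 2.

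Gestational age and scaling bore on the members unequally. With equal summed FPKM and set against the median of all genes, NNAT stood at 1.87, SEC11C at 0.74, SPCS3 at 0.34, SPCS1 at 0.21, SPCS2 at 0.12 and SEC11A at -0.042. With gestational age as a covariate NNAT was at 1.42 and SEC11C at 0.44, SPCS3 at 0.23, and SPCS2 (-0.099), SEC11A (-0.19) and SPCS1 (-0.26) were below 0. The groups share an age only at 139 days (control 2 and norepinephrine 2 and 3), so beyond that day age and treatment cannot be told apart.

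**Figure D3:**
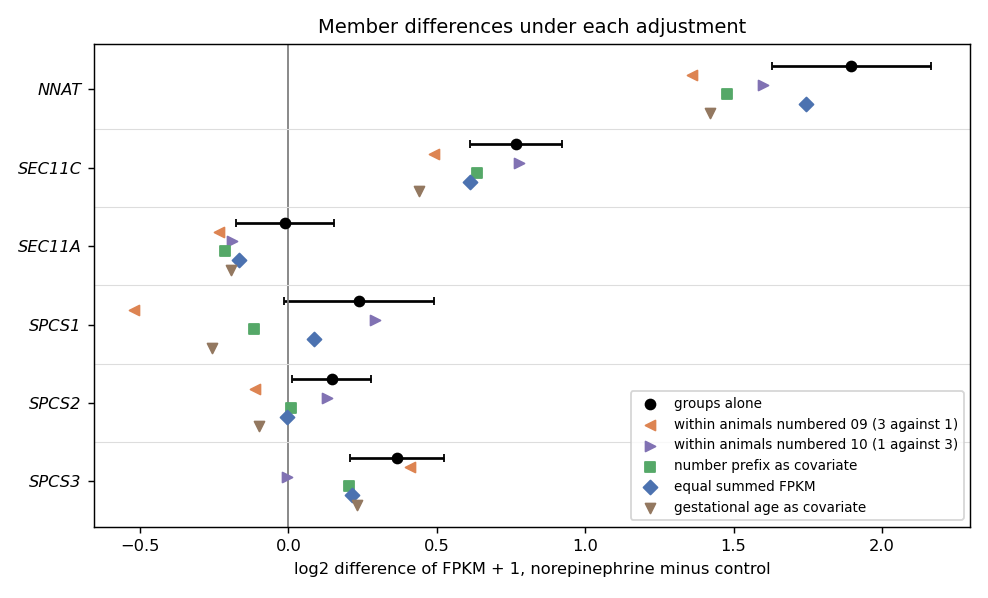
Log2 difference of FPKM + 1 (x axis, norepinephrine minus control) of each member from the groups alone (black, with its SE), within each number prefix, and with the prefix, equal summed FPKM or gestational age taken into account. NNAT ranges from 1.36 to 1.90 and SEC11C from 0.44 to 0.78, both chosen for being higher, and SEC11A ranges from -0.23 to -0.012.

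Other cells and their share in the picked islets were checked through marker lists. Acinar markers, genes of the digestive enzyme cells around islets, had higher means with norepinephrine in 7 of 7 tested genes (median log2 difference 1.25, against 0.017 over all tested genes). Their summed FPKM was 123.9 to 172.1 in controls and 136.3 to 1022 with norepinephrine, and none of the 10 markers listed, of 20 looked for, was at 0 throughout. CPB1, a carboxypeptidase, was the acinar gene without overlap, at 21.7 ± 11.5 and 95.0 ± 42.0 FPKM (limma adjusted p = 0.352), where 1.88% of all tested genes were higher without overlap. Norepinephrine 2 was the treated animal with the lowest sum. Its NNAT (107.3 FPKM) and SEC11C (190.5 FPKM) were above all controls, as in every treated animal. Both genes were chosen for being higher, so nothing on acinar cells is read from this. In that animal CPB1 (58.4 FPKM) and CELA1 (14.0 FPKM), an elastase, were also above all controls, and the other 5 tested acinar genes were below all controls. With the mean of the acinar markers as a covariate, chosen after the data were seen, the differences were 1.43 for NNAT, 0.72 for SEC11C, 0.089 for SPCS3, 0.063 for SPCS2, 0.0045 for SPCS1 and -0.27 for SEC11A. Neural and glial markers, which matter because neurons also express NNAT, had a median of -0.12 over 6 genes, with 3 higher and 3 lower, and their summed FPKM was 142.6 to 188.4 in controls and 115.5 to 165.3 with norepinephrine. NEFM, a neurofilament, was lower in every treated animal than in any control, as were 2.35% of all tested genes (56.4 ± 5.68 to 40.3 ± 10.7 FPKM, limma adjusted p = 0.643). Endocrine lists had medians of 0.14 for beta-cell markers (5 of 8 higher), 0.45 for alpha-cell markers (7 of 9) and -0.14 for delta-cell markers (2 of 5). The delta-cell list was mixed, with SST, the somatostatin gene, at 1.735 and PRG4 at 1.01, but LEPR at -0.14, RBP4 at -0.39 and GHSR at -0.68. Groups overlapped for each of these delta-cell markers. The medians of duct (0.088), endothelial (-0.16), stroma (-0.10) and leukocyte markers (-0.13) came from 5, 9, 8 and 6 genes. No gene of these lists passed limma over all genes, and the part of neural, endocrine or other cells in the NNAT and SEC11C values was not tested. INS and MAFA are not listed under these symbols and IAPP is listed at 0, so beta cells were checked on other genes. Of these, PDX1 stood at 256.9 ± 30.9 FPKM in controls and 272.4 ± 47.6 with norepinephrine (log2 0.076). UCN3 stood at 627.7 ± 184.5 and 933.9 ± 246.5 (log2 0.57), with overlapping groups for both.

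The signal peptidase works beside the machinery that brings chains to the ER, and 0 genes of that machinery passed limma in either direction. Means were higher with norepinephrine in 4 of 5 signal peptidase genes (median 0.24), 4 of 4 genes of the translocon-associated protein complex TRAP (0.31), 10 of 12 oligosaccharyltransferase genes (0.21), 13 of 16 genes of tail-anchored and other insertion routes (0.14), 6 of 8 translocon genes (0.11) and 4 of 7 genes of the signal recognition particle and its receptor (0.035). SEC11C was chosen for being higher, and without it 3 of 4 signal peptidase genes had a higher mean (median 0.19). Over all tested genes 52.6% had a higher mean. With equal summed FPKM the medians were -0.11 for the signal recognition particle, -0.036 for the translocon and -0.016 for the other insertion routes. With scaling by the median ratio over genes these 3 were 0.016, 0.095 and 0.12. With the number prefix as a covariate they were -0.016 for TRAP, -0.026 for the oligosaccharyltransferase and -0.085 for the other insertion routes. With gestational age as a covariate they were -0.099 for the signal peptidase, -0.10 for the signal recognition particle, -0.20 for TRAP, -0.25 for the oligosaccharyltransferase and -0.17 for the other insertion routes, whose median was also below 0 with the acinar mean (-0.081). SEC63, a translocon partner that recruits the chaperone BiP, was the single gene of these other lists whose groups did not overlap. Of all tested genes 1.88% were higher and 2.35% lower without overlap, so nothing is read from this count. SEC63 stood at 52.1 ± 4.64 FPKM in controls and 67.9 ± 8.82 with norepinephrine (log2 0.37, SE 0.13, limma adjusted p = 0.587). HSPA5, which encodes BiP, stood at 739.7 ± 124.2 and 1016 ± 177.4 (log2 0.46), and SEC61A1, the pore subunit, at 115.8 ± 33.5 and 149.7 ± 30.6 (log2 0.39). SEC61G, a small channel subunit, had the largest negative difference (-1.33), with norepinephrine 2 at 5.12 FPKM and the other 7 animals between 72.9 and 289.8. SEC62 (0.027), SEC61B (-0.0090), TRAM1 (0.17) and TRAM2 (0.055) were the remaining translocon genes. The rows of SEC61G (chromosome 14, 49457592 to 49457795) and SEC61B (chromosome 3, 201795911 to 201796198) cover only short stretches. Their FPKM and differences are therefore uncertain as measures of these subunits.

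The TRAP subunits differed by 0.21 (SSR1), 0.40 (SSR2), 0.41 (SSR3) and 0.20 (SSR4). Within the number prefixes SSR2 differed by -0.063 and 0.092 and SSR3 by 0.034 and 0.090. Among the most abundant genes of the other lists, OST4 of the oligosaccharyltransferase stood at 2902 ± 1518 and 3373 ± 865.9 FPKM, SRP14 at 294.9 ± 67.6 and 300.4 ± 34.7, and EMC7 at 154.0 ± 56.5 and 177.1 ± 37.7, control before norepinephrine. The row of OST4 is very short (chromosome 3, 34032587 to 34032697), so its level is uncertain. SRP9 (-0.59), TMEM258 (0.11), SRPR (-0.11), UBL4A (0.30) and EMC6 (0.39) complete the genes named for these lists. Intramembrane peptidases of the signal peptide peptidase family had a median of -0.0037 over 3 genes. Among them HM13, the signal peptide peptidase, which cuts the remnants of signal peptides, stood at 96.7 ± 22.3 and 108.5 ± 17.1 FPKM and SPPL2A at 84.2 ± 7.71 and 73.9 ± 17.9.

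**Figure D4:**
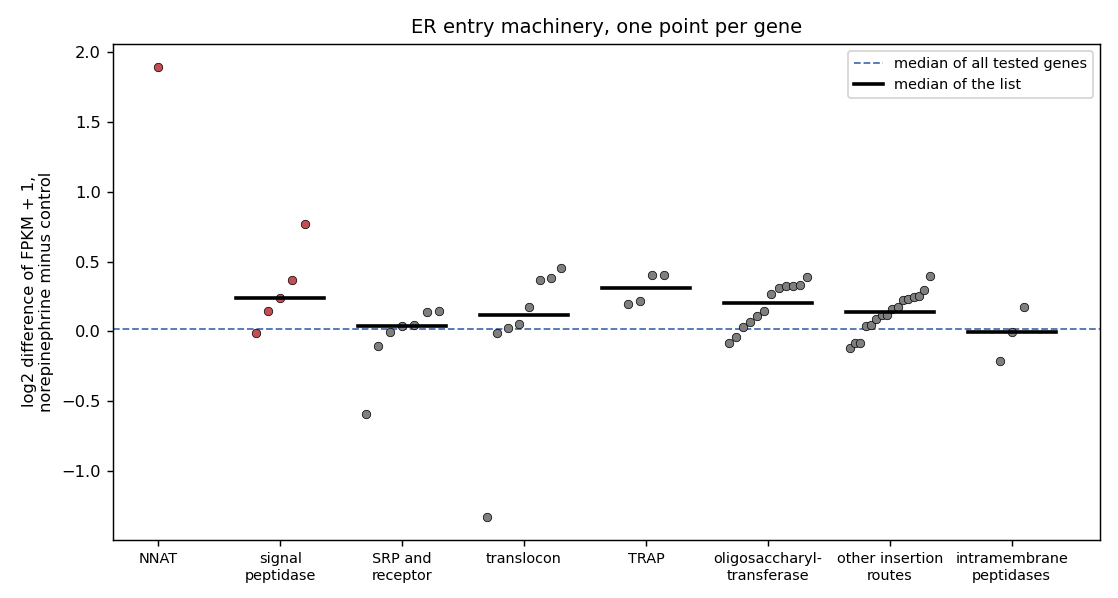
Log2 difference of FPKM + 1 (y axis, norepinephrine minus control), 1 point per tested gene, for NNAT, the signal peptidase (both red) and 6 lists of ER entry genes (grey); black bars are list medians and the dashed line is the median of all tested genes (0.017). NNAT at 1.90 and SEC11C at 0.77 lie above every other point, but both were chosen for being higher, so nothing is read from their place.

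Genes that give neuronatin its context were read in the same way. BLCAP, the gene in whose span RefSeq places NNAT on another sheep assembly (ARS-UI_Ramb_v3.0), stood at 84.4, 97.2, 73.3 and 72.4 FPKM in controls and 78.2, 70.2, 64.4 and 89.8 FPKM with norepinephrine. Its log2 difference was -0.11 (SE 0.15, limma adjusted p = 0.864), and the ratio of NNAT to BLCAP was 0.397 to 0.702 in controls and 1.53 to 3.11 with norepinephrine. In the deposited table the row of BLCAP covers a short stretch beside NNAT, chromosome 13, 66030149 to 66030409. Whether counting used strand is not known from the sources used here, so reads of BLCAP and NNAT may not be fully separated where the genes overlap. VSTM2L, another gene near NNAT in mammals, stood at 10.3 ± 2.75 and 19.4 ± 5.47 FPKM (log2 0.84, SE 0.24, limma adjusted p = 0.523), with an overlap of control 2 and norepinephrine 2. Over 10 genes near NNAT the median was 0.063, with RPN2 (0.33) and MANBAL (0.19) the most abundant.

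Genes near SEC11C had a median of 0.23 over 6 genes. NEDD4L, a ubiquitin ligase, was higher in every treated animal than in any control, as were 1.88% of all tested genes (25.7 ± 2.93 and 35.8 ± 4.10 FPKM, log2 0.46, limma adjusted p = 0.523). LMAN1, an ER cargo receptor, stood at 71.6 ± 16.4 and 84.4 ± 19.1 FPKM.

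Other imprinted genes had a median of 0.22 over 17 genes, 10 higher and 7 lower. That median was -0.077 with the number prefix as a covariate, -0.055 with gestational age, -0.023 with the acinar mean and -0.0085 with the prefix and equal summed FPKM. MAGEL2 was lower in every treated animal than in any control, as were 2.35% of all tested genes (28.3 ± 4.89 and 20.1 ± 4.30 FPKM, limma adjusted p = 0.597). The genes named for the list were DLK1 at 6333 ± 3692 and 7140 ± 2040 FPKM, GNAS at 1896 ± 535.8 and 2842 ± 692.3, and SLC22A18 at 1.16 ± 0.960 and 5.19 ± 3.25. The ER calcium handling list, which holds the pumps whose small regulators neuronatin resembles, had a median of -0.055 over 10 genes, with ATP2A2 at 104.6 ± 14.8 and 88.9 ± 5.67 FPKM, ATP2A3 at 86.6 ± 24.1 and 78.3 ± 21.8, and ITPR2 at 11.5 ± 3.97 and 7.35 ± 1.40. NEUROD1, a known activator of NNAT, is not listed under this symbol. Islet transcription factors had a median of 0.21 over 13 genes, with PDX1 (0.076) and PAX6 (0.21) the most abundant. Secretory cargo with signal peptides had a median of 0.33 over 16 genes, 14 of them higher, with CHGA at 3891 ± 1555 and 4853 ± 829.7 FPKM, SCG5 at 3235 ± 1167 and 3829 ± 653.4, and SST at 392.7 ± 368.7 and 1142 ± 717.4. CPE, a carboxypeptidase of prohormone processing, was higher in every treated animal than in any control, as were 1.88% of all tested genes (578.5 ± 108.7 and 798.7 ± 3.96 FPKM, limma adjusted p = 0.574).

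Likeness to NNAT and SEC11C was measured as the Pearson correlation of log2(FPKM + 1) over the 8 animals among 7248 rows with a symbol and a mean of at least 10 FPKM. These animals share treatment, number prefix and library scale, so the values are a description. Among the 5 closest to NNAT were TMEM57 (0.992), MRPL42 (0.976) and ASCC2 (0.974). SEC11C took place 10 for NNAT (0.948), and NNAT took place 12 for SEC11C. Closest to SEC11C were KDELR3 (0.985), a receptor that returns ER proteins from the Golgi, FBXL5 (0.974), ATG3 (0.964), RWDD1 (0.962) and NFX1 (0.959). With equal summed FPKM the correlation of NNAT with SEC11C was 0.843 (place 36 for NNAT and 42 for SEC11C), KDELR3 took place 3 for SEC11C (0.927), and TMEM57 took place 20 for NNAT (0.870). After each group mean was subtracted, NNAT correlated at 0.975 with SEC11A and at 0.689 with SEC11C, and SEC11C correlated at 0.911 with SPCS2 and at 0.112 with SPCS3. Number prefix and library sum, which differ within the groups, enter all of these correlations.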

How the data were processed

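Per the labels' protocols, messenger RNA of hand-picked islets was sequenced as paired reads with a TruSeq RNA kit. Per the submitters' processing notes, TopHat2 2.0.1, Cufflinks 2.1.1 and Cuffdiff were used with the build Oar_v3.1. Neither annotation nor filters could be read from the sources used here. The authors deposited 1 FPKM value per gene and animal, per the file headers. Columns were matched to animals by animal number, and starts were raised by 1 to count from 1. All 6 members have a symbol in RefSeq.

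Rows with a mean of at least 1 FPKM (13252) were compared as log2(FPKM + 1), a scale that understates changes of low genes, with limma 3.58.1 in R 4.3.3 (lmFit and trended eBayes). Tests were two-sided, p-values were adjusted by Benjamini-Hochberg over all tested genes, and the threshold was 0.05. The procedure was tested on simulated data of independent genes, without differences by number prefix or library scale. That simulation therefore does not show how the procedure performs with the uneven prefixes of this design. Permutation tests used scipy 1.17.1. The labels give each fetus its own number, weight and age, so replicates are separate animals. Replicate numbers belong to different animals in the groups and were not used to pair them in the main tests.

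The members and 22 gene lists were chosen with earlier results of these data known. Named genes were the members, the signal peptidase, TRAP and translocon genes, from each list those past the threshold or else the 2 most abundant and the 1 with the largest difference, BLCAP, ATP2A2, HM13, NEUROD1, and the 5 rows most like NNAT and SEC11C. A few genes that this rule names are not reported here. The genes of the lists, besides SEC11C, whose groups did not overlap are also named; CPE, MAGEL2, CPB1 and CELA1 are named after their values were seen where the rule did not pick them. For cell type lists mainly counts, medians and summed levels are given. Alternatives covered the pseudocount, filter, scaling, variance trend, prefix, age, sex, replicate block and each animal left out.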

Additional observations from a re-analysis of the deposited data

Results flagged for a closer look

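NNAT in control 2 stood at 68.2 FPKM, far from the other 3 controls (32.8 to 38.2). SPCS1 in control 2 stood at 150.7 FPKM, where the other controls were between 68.4 and 70.7. SPCS3 in control 1 was low, at 30.5 FPKM against 37.2 to 38.1 in the others. The ratio of SPCS3 to SEC11A in norepinephrine 1 was 0.200, above 0.155 to 0.163 in the other treated animals. Chance marks about 1 in 20 such groups of 4, and 20 groups were examined. Control 2 is the only control numbered 09.

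The treatment difference of SPCS1 went in opposite directions in animals numbered 09 (-0.52, all 3 treated below control 2) and 10 (0.29, norepinephrine 2 above all 3 controls). The interaction was 0.81 and did not pass over all genes (limma adjusted p = 0.848). SPCS2 showed the same arrangement (-0.11 and 0.13), with an interaction of 0.24 (adjusted p = 0.863).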

How the results depend on the processing

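The FPKM table holds no counts, so the depth behind a value is unknown, and precision is limited by 4 animals a group, unevenly spread over the number prefixes. limma called 0 genes in the main setting. It called 1 with equal summed FPKM, 1 with the prefix as covariate and 1 with both (added after the data were seen). Each time that gene was NNAT, which was chosen on this contrast, so the call is not a test of NNAT. In male fetuses only limma called 1 gene (U1). When 1 animal was left out it called 0 to 2 (2 without norepinephrine 1, 1 without norepinephrine 3). At an unadjusted p under 0.05 the 975 genes became 2201 without control 2, 1517 without norepinephrine 2, 595 without control 3, 1619 in males, 1552 with the prefix and 1525 with prefix and equal sums. Leaving out 1 animal gave 1.78 to 2.13 for NNAT, 0.67 to 0.87 for SEC11C and -0.0916 to 0.0941 for SEC11A, which turned positive without control 2 (0.0941) and norepinephrine 2 (0.0831) and in males only (0.0141). With gestational age NNAT was at 1.42, SEC11C 0.44, SPCS1 -0.259, SPCS2 -0.0986, and the medians of the signal peptidase were at -0.0986, signal recognition particle -0.104, TRAP -0.203 and oligosaccharyltransferase -0.246. NNAT was at 1.43 with the acinar mean (added). With the prefix SPCS1 was at -0.114 (-0.0424 with equal sums too, added) and the signal peptidase median at 0.00827. With equal sums SPCS2 was at -0.00635 and the signal recognition particle median at -0.114, and the prefix differences were 0.185 for SEC11C, 0.0501 for SEC11A, -0.255 for SPCS1, 0.172 for SPCS2 and 0.115 for SPCS3. Without treatment in the model the prefix difference of SEC11A was -0.295 and no longer passed. Of the 5 genes most like NNAT, Spearman correlation shared 2 and equal sums 0, and for SEC11C 0 and 1. The cause of these shifts was not tested.

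A replicate block cannot move a difference of means in this balanced design (NNAT 1.90, SEC11C 0.77). With it 0 genes passed and 646 had an unadjusted p under 0.05. Same-numbered animals correlated at -0.156, -0.381, -0.0344 and 0.0932 around their group means. Animals with the same replicate number always differ in number prefix, by which the libraries parted. These correlations therefore cannot show whether the replicate numbers mark pairs.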
